A study of Mus musculus with 6 samples.

Results

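The genes described here are the 9 membrane adenylyl cyclases, Adcy1 to Adcy9, the enzymes on which forskolin acts. They were taken by symbol from a deposited table of 37411 genes, and all 9 were found. The table comes from RNA sequencing of primary hippocampal neurons of CD-1 IGS mice, an outbred strain, cultured from newborn pups and used after 16 days in vitro. In the control group 3 cultures (libraries 1, 2 and 3) received DMSO, the solvent. In the treated group 3 cultures (libraries 4, 5 and 6) received 50 µM forskolin, and both groups were treated for 30 min. No group carries a genetic alteration. Nothing says whether libraries came from separate pups or platings, so p-values measure only the spread between these samples.

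Membrane adenylyl cyclases make cyclic AMP (cAMP) from ATP. Each has a pair of catalytic domains, and the stimulatory G protein alpha subunit and forskolin bind at their interface, whereas the inhibitory alpha subunits lower the activity of some isoforms. The isoforms differ in their other inputs: Adcy1, Adcy3 and Adcy8 respond to calcium and calmodulin, Adcy2, Adcy4 and Adcy7 are stimulated by G protein beta-gamma subunits, Adcy5 and Adcy6 are inhibited by calcium, and Adcy9 responds only weakly to forskolin. In the hippocampus Adcy1 and Adcy8 are known for their part in long-term potentiation and memory.

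The RefSeq promoter table (GRCm38.p6) held a window for 7 of the 9 genes; Adcy6 and Adcy8 had none. Each window runs from 250 bases before to 50 bases after an annotated start, and Adcy3 and Adcy7 have several starts, which gave 10 windows. The 4 windows below belong to the genes with the clearest differences between libraries described further on. They are written 5′ to 3′ on the gene's strand, with capitals marking TGACG, the half-site of the cAMP response element, on either strand.
Adcy3, chr12:4133147-4133446, plus strand: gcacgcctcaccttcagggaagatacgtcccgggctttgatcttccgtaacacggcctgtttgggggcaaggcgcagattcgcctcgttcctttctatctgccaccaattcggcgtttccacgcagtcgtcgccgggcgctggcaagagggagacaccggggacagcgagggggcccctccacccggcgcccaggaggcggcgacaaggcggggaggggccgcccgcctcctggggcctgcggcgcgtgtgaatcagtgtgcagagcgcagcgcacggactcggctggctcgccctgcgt
Adcy5, chr16:35154614-35154913, plus strand: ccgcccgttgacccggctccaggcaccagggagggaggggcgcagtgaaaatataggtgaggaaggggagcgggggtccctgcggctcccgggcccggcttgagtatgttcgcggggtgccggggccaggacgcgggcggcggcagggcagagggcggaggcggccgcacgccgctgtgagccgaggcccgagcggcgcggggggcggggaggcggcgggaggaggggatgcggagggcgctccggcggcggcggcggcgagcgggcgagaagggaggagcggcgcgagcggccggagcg
Adcy9, chr16:4420449-4420748, minus strand: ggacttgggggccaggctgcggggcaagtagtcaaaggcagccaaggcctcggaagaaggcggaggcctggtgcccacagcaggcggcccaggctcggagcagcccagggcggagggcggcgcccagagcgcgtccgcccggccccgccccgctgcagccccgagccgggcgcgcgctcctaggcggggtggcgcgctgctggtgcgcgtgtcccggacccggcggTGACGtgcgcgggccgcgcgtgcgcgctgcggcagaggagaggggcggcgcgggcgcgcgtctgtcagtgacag
Adcy7, chr8:88282742-88283041, plus strand: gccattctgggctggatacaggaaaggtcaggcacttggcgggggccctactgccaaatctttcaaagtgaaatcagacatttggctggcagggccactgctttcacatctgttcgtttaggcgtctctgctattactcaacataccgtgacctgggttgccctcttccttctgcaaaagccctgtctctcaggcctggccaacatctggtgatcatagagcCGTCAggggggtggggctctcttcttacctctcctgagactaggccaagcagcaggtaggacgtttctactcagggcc

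The complete response element TGACGTCA was in none of the 10 windows and in 1.79% of all 32851 promoter windows of the table. TGACG on either strand, which also counts matches inside the complete element, was in 2 of the 10 windows and in 20.8% of all windows. Its matches began 24 bases before the start of Adcy9 and 28 bases before this start of Adcy7. The windows of Adcy5 and Adcy9 had GC contents of 79.0 and 78.3%, against a median of 52.7% over all windows, and that of Adcy3 shown here had 68.7%. A match is only a run of letters, and its absence says nothing about binding elsewhere.

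In what follows the values of single libraries are in numerical order, 1, 2 and 3 for DMSO and 4, 5 and 6 for forskolin. Total counts ran from 28342764 to 47548379 per library, and 16233 genes passed a filter on low counts. Library 6 stood apart from the other treated libraries. Across genes its log2 CPM (counts per 1000000 of the library size after TMM scaling) correlated at 0.983 with DMSO library 3. Library 6 correlated at 0.943 and 0.940 with forskolin libraries 4 and 5, which correlated with each other at 0.987. Its level of Fos, a gene that cAMP induces, was nevertheless 448 CPM, above the DMSO libraries at 186, 109 and 101 CPM and below libraries 4 and 5 at 831 and 902 CPM. Of the other readouts of the treatment, Nr4a1 (edgeR log2 fold change 2.20 ± 0.43 (SE), adjusted p = 0.0652) and Crem (0.68 ± 0.16, adjusted p = 0.0934) were also higher in all 3 forskolin libraries than in any DMSO library. The cultures were rich in astrocyte markers, whose 8 genes summed to 7700, 7502 and 6996 CPM under DMSO. In libraries 4, 5 and 6 the astrocyte sum was 7673, 8519 and 6936 CPM. Neuron markers were abundant too: their 10 genes summed to 4163, 4879 and 5371 CPM in the DMSO libraries. The neuron sum was 3184, 3441 and 5035 CPM in libraries 4, 5 and 6. In the edgeR fit described further on, 1 of these 10 was called, Rbfox3, which was lower (-0.87, edgeR adjusted p = 0.0392), where 1.34% of all tested genes were called lower. An unadjusted p-value under 0.05 was found for 4 of the 10, against 22.3% of all tested genes, and DESeq2 called 3 lower, against 5.83%. The 12 microglia markers summed to 34.7, 24.5 and 23.0 CPM in the DMSO libraries, and to 221, 373 and 24.6 CPM in libraries 4, 5 and 6. Of 8 astrocyte, 9 oligodendrocyte lineage and 7 endothelial and mural markers tested, edgeR called 0 (1, 7 and 1 had an unadjusted p-value under 0.05, against 22.3% of all tested genes) and DESeq2 called 0, 5 and 1, against 10.5%. The share of counts from mitochondrial ribosomal RNA was 14.0, 23.7 and 19.8% under DMSO and 29.6, 33.3 and 26.9% under forskolin, higher in every treated library (exact permutation p = 0.1, two-sided, the smallest that 3 against 3 allows), and its part in the results was not tested. Because libraries 4 and 5 differ from library 6 in these ways, the changes of the cyclases and of the pathway genes that passed the test, and the counts of pathway genes called, are also given without library 6.

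The cultures expressed mainly 7 of the 9 cyclases. Levels between genes were compared as CPM per kilobase of the longest annotated transcript, and mean levels in DMSO are given in that unit. Adcy1 was highest at 30.6 ± 3.81 (SD, n = 3), or 29.6 ± 2.54% of the summed level of the 9 genes. Adcy2 followed at 20.7 ± 1.10 and Adcy5 at 17.1 ± 0.159. Adcy9 (12.5 ± 0.620) and Adcy3 (12.3 ± 0.713) came next and could not be ordered, since their DMSO libraries overlapped. Adcy6 stood at 6.37 ± 0.538 and Adcy8 at 3.41 ± 0.322. Adcy7, at 0.266 ± 0.0873, and Adcy4, at 0.0193 ± 0.0117, were the lowest. Apart from Adcy9 and Adcy3, neighbours in this order did not overlap between DMSO libraries.

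The order depends on the length used. With coding length, Adcy5 (31.6 CPM per kilobase) lay above Adcy2 (26.5) and Adcy3 (20.1) above Adcy9 (15.3). Adcy1 then reached 112, since its longest transcript of 12.3 kb is mostly untranslated. The forskolin means kept the order of the DMSO means in the length first used, although in library 4 Adcy6 (7.12) lay above Adcy3 (6.50). These means put Adcy1 at 25.9 ± 9.21, Adcy2 at 17.5 ± 5.28 and Adcy5 at 11.3 ± 1.45 CPM per kilobase.

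Grouped by their regulation, the calcium- and calmodulin-stimulated cyclases made up 44.8 ± 2.32% of the summed level in DMSO and 44.2 ± 3.70% with forskolin (SD, n = 3). The class stimulated by beta-gamma subunits made up 20.3 ± 0.279 and 22.6 ± 0.611%. Its shares of 21.9, 22.7 and 23.1% in libraries 4, 5 and 6 lay above those of 20.0, 20.5 and 20.5% in the DMSO libraries. Adcy2 alone took 19.8, 20.2 and 20.2% under DMSO and 20.2, 19.5 and 22.8% under forskolin, which overlapped; Adcy7, at 1.23 and 2.31 CPM per kilobase in libraries 4 and 5, made up nearly all of the rest there and was high in the libraries rich in microglia markers. The calcium-inhibited class had 22.8 ± 1.56 and 21.6 ± 3.65%, and Adcy9, the isoform least responsive to forskolin, 12.1 ± 1.04 and 11.7 ± 0.721%. These shares also rest on length: with coding length the first class took 61.8% and Adcy9 6.88% in DMSO. The summed level was 98.0, 105 and 106 CPM per kilobase in the DMSO libraries. It was 73.7 and 72.2 in libraries 4 and 5, and 103 in library 6, within the DMSO range.

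**Figure D1:**
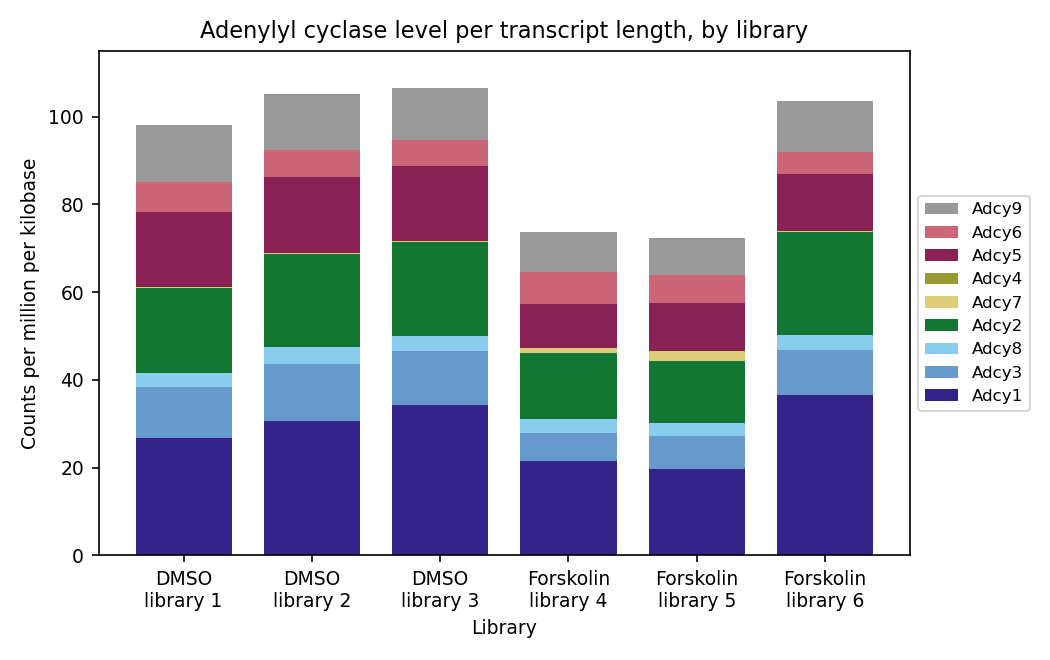
Stacked bars give the level of each cyclase, in CPM per kilobase of its longest transcript, in each of the 6 libraries, with genes of 1 regulatory class in neighbouring layers. Libraries 4 and 5 reach 73.7 and 72.2, whereas the DMSO libraries and library 6 reach 98.0 to 106.

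The comparison of forskolin with DMSO asks whether 30 min of cyclase activation goes with other amounts of the cyclase transcripts themselves. Of the 9 genes 8 could be tested, and edgeR's quasi-likelihood test on the 6 libraries called none of them at an adjusted p-value under 0.05. In that fit 1.51% of all 16233 tested genes were called, 0.172% higher and 1.34% lower. An unadjusted p-value under 0.05 was found for 4 of the 8 (Adcy3, Adcy5, Adcy7 and Adcy9), against 22.3% of all tested genes. DESeq2 on the same libraries called 2 of the 8, Adcy5 lower and Adcy7 higher, where it called 10.5% of all tested genes. Fitted changes were below 0 for 7 of the 8, with a median of -0.24 on the log2 scale, and for 48.2% of all tested genes, whose median was 0.02.

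**Figure D2:**
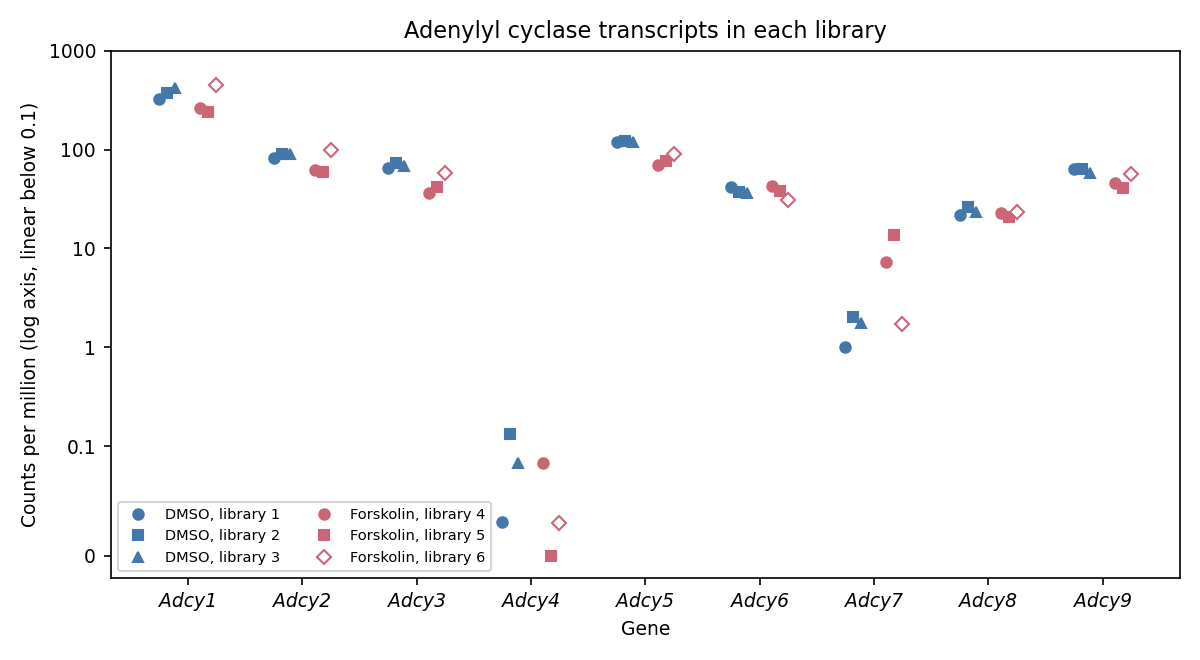
Points give the CPM of each cyclase in each library on a log axis that is linear below 0.1, with DMSO libraries in blue and forskolin libraries in red, library 6 open. Adcy3, Adcy5 and Adcy9 are lower in every forskolin library than in any DMSO library, and Adcy7 is high in libraries 4 and 5 only.

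Among the calcium- and calmodulin-stimulated cyclases, Adcy1 (chr11:7063489-7178506, plus strand) stood at 328, 375 and 421 CPM under DMSO and at 263, 242 and 447 CPM under forskolin. Libraries 4 and 5 were below every DMSO library and library 6 above them all, so that the groups overlapped (edgeR log2 fold change -0.24 ± 0.26 (SE), adjusted p = 0.597). Without library 6 the change was -0.59 ± 0.13 and passed the test (edgeR adjusted p = 0.0176). With libraries 4 and 5 left out instead, which leaves library 6 alone with a spread borrowed from the other group, it was 0.29 ± 0.16 (edgeR adjusted p = 0.449). The neuron markers moved alongside: per 1000 CPM of their sum, Adcy1 stood at 78.8, 76.8 and 78.5 in the DMSO libraries and at 82.6, 70.2 and 88.8 in libraries 4, 5 and 6. In bulk RNA, fewer cells of a type and less RNA per cell cannot be told apart.

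Adcy3 (chr12:4133103-4213525, plus strand), the cyclase of olfactory transduction and of neuronal primary cilia, stood at 65.4, 73.3 and 68.6 CPM under DMSO and at 36.5, 42.1 and 58.1 CPM under forskolin. Every forskolin library lay below every DMSO library, with library 6 nearest to them. The means were 69.1 ± 4.01 and 45.6 ± 11.2 CPM (SD, n = 3), a ratio of 0.659 (edgeR log2 fold change -0.60 ± 0.18 (SE), adjusted p = 0.143). Without library 6 Adcy3 fell by 0.83 ± 0.11 on the log2 scale (edgeR adjusted p = 0.00439). Per 1000 CPM of neuron markers the groups did not overlap either, at 14.5 ± 1.53 and 11.7 ± 0.431. Its exons share 1380 bases with Cenpo on the other strand, and the counting's use of strand is not stated; Cenpo held 3.65 ± 0.345 and 3.87 ± 0.415 CPM.

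Adcy8 (chr15:64697084-64922296, minus strand) showed the narrowest spread of the class. It stood at 21.8, 26.2 and 23.4 CPM under DMSO and at 22.6, 20.8 and 23.3 CPM under forskolin, which overlapped (edgeR log2 fold change -0.10 ± 0.12 (SE), adjusted p = 0.662). Without library 6 it was -0.15 ± 0.12 (edgeR adjusted p = 0.379).

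Among the cyclases stimulated by beta-gamma subunits, Adcy2 (chr13:68620043-68999541, minus strand), a brain isoform, had 81.9, 89.4 and 90.3 CPM in the DMSO libraries. It had 62.7, 59.3 and 99.4 CPM in libraries 4, 5 and 6, the same arrangement as for Adcy1 (edgeR log2 fold change -0.24 ± 0.21 (SE), adjusted p = 0.511). Without library 6 Adcy2 fell by 0.53 ± 0.09 on the log2 scale (edgeR adjusted p = 0.00878). Without library 4 Adcy2 changed by -0.14 ± 0.23, and without library 5 by -0.07 ± 0.21 (edgeR adjusted p = 0.826 and 0.921). Per 1000 CPM of neuron markers it stood at 18.3 ± 1.43 in DMSO and 18.9 ± 1.44 with forskolin (SD, n = 3), and the groups overlapped. Its exons share 189 bases with the antisense gene Gm35161.

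Adcy4 (chr14:55769057-55784095, minus strand), known from vascular cells, was near the limit of detection. Its counts were 1, 4 and 3 under DMSO and 4, 0 and 1 under forskolin, too few for the test. A count of 0 in library 5 allows up to 0.0881 CPM at a floor of 3 counts, counting error only. The 9 endothelial and mural markers summed to 69.0 ± 38.2 and 67.1 ± 28.2 CPM (SD, n = 3).

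Adcy7 (chr8:88272403-88329962, plus strand) is the main cyclase of many myeloid and other blood cells, and it alone among the tested cyclases had a fitted change above 0. The DMSO libraries gave 32, 61 and 62 counts, or 0.999, 2.002 and 1.74 CPM. Libraries 4 and 5 held 346 and 468 counts, or 7.35 and 13.8 CPM, whereas library 6 held 57 counts, or 1.70 CPM, inside the DMSO range. The fit to all 6 libraries gave a log2 fold change of 2.26 ± 0.71 (SE), not past the threshold (edgeR adjusted p = 0.154). DESeq2 called it (2.27 ± 0.66, adjusted p = 0.0111), as did edgeR without library 6 (2.72 ± 0.38, adjusted p = 0.00506). Leaving out library 5 alone lowered it to 1.56 ± 0.64 (edgeR adjusted p = 0.426). With libraries 4 and 5 left out instead, the change was 0.15 ± 0.46 (edgeR adjusted p = 0.888).

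The microglia markers followed the same libraries. Their summed level was 8.06 times the DMSO mean in library 4, 13.6 times in library 5 and 0.898 times in library 6, against 4.65, 8.70 and 1.08 times for Adcy7. Itgam and Ptprc, singled out after their values were seen, show the size: Itgam had 233 and 682 counts in libraries 4 and 5 and 3 to 6 counts elsewhere, and Ptprc had 346 and 716 counts against 3 to 11. Without library 6, edgeR called 10 of the 11 microglia markers that the full fit tested higher, where 16.5% of all tested genes were called higher; on all 6 libraries it called 0 of 11 (10 had an unadjusted p-value under 0.05) and DESeq2 called 10. Of these 11, 9 pass the low-count filter of the full fit on the DMSO libraries alone, and 8 of the 9 were called higher without library 6; P2ry12 and Trem2 pass it only with libraries where they are high, so nothing is read from their direction. No marker of the list was at 0 in every library. Per 1000 CPM of the microglia markers, Adcy7 stood at 28.8, 81.8 and 75.5 in the DMSO libraries and at 33.3, 36.8 and 69.2 in libraries 4, 5 and 6, so that the groups overlapped. The part of these cells in the level of Adcy7 was not tested.

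**Figure D3:**
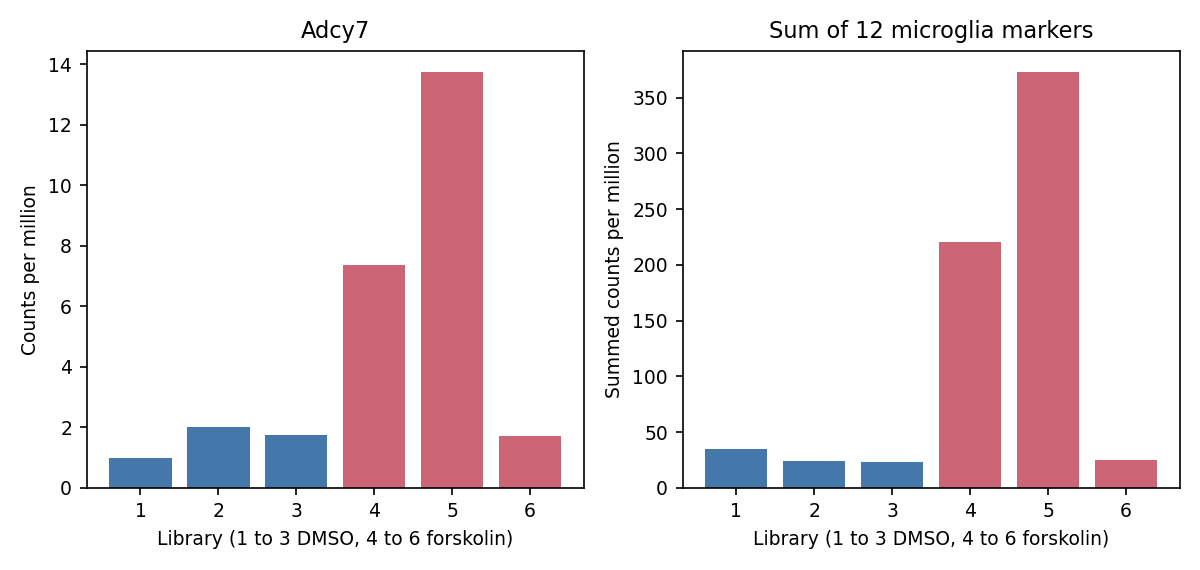
Bars give, for each library, the CPM of Adcy7 (left) and the summed CPM of 12 microglia markers (right), DMSO in blue and forskolin in red. Both are high in libraries 4 and 5 (Adcy7 at 7.35 and 13.8, the markers at 221 and 373) and at the DMSO level in library 6.

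Of the calcium-inhibited cyclases, Adcy5 (chr16:35154877-35305738, plus strand), the main isoform of the striatum, came nearest to the threshold in the full fit. It stood at 120, 121 and 119 CPM under DMSO and at 70.5, 77.2 and 90.4 CPM under forskolin. The DMSO libraries lay within a few CPM of each other and every forskolin library was below them, with means of 120 ± 1.11 and 79.4 ± 10.1 CPM (SD, n = 3). The log2 fold change was -0.59 ± 0.12 (SE; edgeR adjusted p = 0.0729), and Adcy5 passed with DESeq2 (-0.57 ± 0.15, adjusted p = 0.00390). Without library 6 it fell by 0.71 ± 0.09 (edgeR adjusted p = 0.00395), and with library 6 as the only treated library the change was -0.37 ± 0.13 (edgeR adjusted p = 0.273). Per 1000 CPM of neuron markers the groups overlapped, at 25.2 ± 3.33 and 20.8 ± 2.51.

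Its closest relative, Adcy6 (chr15:98589973-98610076, minus strand), a widely expressed isoform, stood at 42.2, 37.0 and 36.3 CPM under DMSO and at 43.0, 38.2 and 30.6 CPM under forskolin. The groups overlapped (edgeR log2 fold change -0.05 ± 0.15 (SE), adjusted p = 0.878). Here library 6 was the lowest of the 6 libraries, and without it the change was 0.06 ± 0.11 (edgeR adjusted p = 0.691). The antisense gene Gm29331, whose exons share 605 bases with Adcy6, was listed at 0 counts in every library.

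Adcy9 (chr16:4287529-4420498, minus strand) stood at 64.0, 63.6 and 58.5 CPM under DMSO and at 45.8, 41.3 and 57.1 CPM under forskolin. Every forskolin library was below every DMSO library, library 6 only narrowly below library 3. The means were 62.0 ± 3.08 and 48.05 ± 8.16 CPM (SD, n = 3; edgeR log2 fold change -0.37 ± 0.14 (SE), adjusted p = 0.197). Without library 6 Adcy9 fell by 0.53 ± 0.10 (edgeR adjusted p = 0.0105). Per 1000 CPM of neuron markers the groups overlapped, at 13.1 ± 2.24 and 12.6 ± 1.60. Adcy10, the soluble cyclase on which forskolin does not act, was counted 7, 15 and 12 times under DMSO and 5, 1 and 7 times under forskolin, too few for the test on all 6 libraries.

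Counted over the 8 tested cyclases, 3 lay lower in every forskolin library than in any DMSO library and 0 lay higher, where 16.2 and 10.3% of all tested genes did. Without library 6 edgeR called 5 lower (Adcy1, Adcy2, Adcy3, Adcy5 and Adcy9) and 1 higher (Adcy7). In that fit 17.1% of all tested genes were called lower and 16.5% higher. Limma-voom with library quality weights called the same 5 lower and Adcy7 higher, but it called 41.9% of all tested genes. Leaving out any other single library, edgeR called 0 of the 9, and 0 genes in all; an unadjusted p-value under 0.05 was found for 1945 to 3216.

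GC content moved with these changes. Over tested genes the median log2 fold change was 0.26 at a transcript GC content of 40 to 45%, -0.09 at 50 to 55% and -0.57 at 60 to 65%. Adcy5, with a GC content of 59.5%, lies above 94.3% of tested genes in it, and Adcy9 (57.0%) and Adcy3 (56.7%) lie above 86.8 and 85.8%. The 2757 tested genes between 55 and 60% had a median of -0.29 and quartiles of -0.51 and 0.01: Adcy3 and Adcy5 were under the lower quartile, Adcy9 and Adcy6 (55.4%) within. With the trend on GC content taken out library by library, the change was -0.18 ± 0.23 for Adcy5, -0.37 ± 0.26 for Adcy3 and -0.12 ± 0.22 for Adcy9 (edgeR adjusted p = 0.719, 0.568 and 0.788). Adcy7 kept 2.22 ± 0.68 (edgeR adjusted p = 0.339), and that fit called 0 genes in all, with 1815 at an unadjusted p-value under 0.05.

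With the GC trend removed and library 6 left out, a setting chosen after the data were seen, Adcy5 fell by 0.51 ± 0.11, Adcy3 by 0.77 ± 0.12 and Adcy9 by 0.45 ± 0.08. Adcy1 fell by 0.68 ± 0.15 and Adcy2 by 0.63 ± 0.10 (edgeR adjusted p from 0.00489 to 0.0136 for these 5). In it edgeR called 28.9% of all tested genes lower and 12.5% higher, and the median of all tested genes was -0.18.

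**Figure D4:**
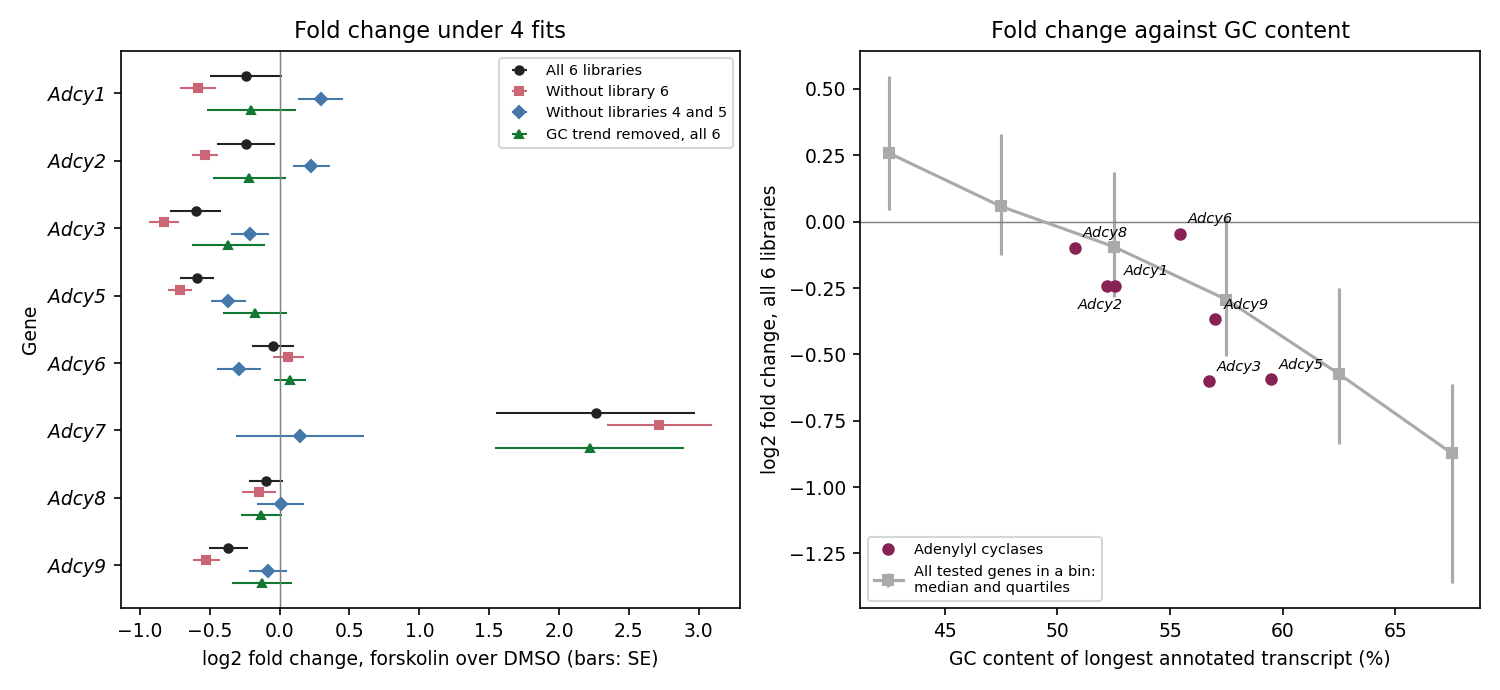
The left panel gives the log2 fold change, forskolin over DMSO, of the 8 tested cyclases with its standard error in 4 fits. The right panel sets the change in the full fit against transcript GC content for 7 of them (Adcy7, at 2.26, lies outside the axis), with the median and quartiles of all tested genes in bins of 5%; Adcy3 and Adcy5 lie below the quartiles of their bin.

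The cyclases were set beside 85 other genes of the cAMP pathway, of which 81 were tested. Of these, edgeR called 1 higher and 3 lower, with a median log2 fold change of -0.19; of all tested genes 0.172% were called higher and 1.34% lower, and their median was 0.02. Leaving out any single library other than 6 ended all 4 calls, at edgeR adjusted p from 0.0968 to 0.342. The gene called higher was Rgs2, a regulator of G protein signalling that is also known to inhibit several membrane cyclases directly. It stood at 42.7, 45.8 and 43.4 CPM under DMSO and at 144, 133 and 121 CPM under forskolin, about the same in each treated library (edgeR log2 change 1.59 ± 0.11 (SE), adjusted p = 0.0188). All 3 forskolin libraries lay on the same side of DMSO for Rgs2, and without library 6 the change was 1.64 ± 0.09 (edgeR adjusted p = 0.00176). After removal of the GC trend it was 1.30 ± 0.13 and no longer passed (edgeR adjusted p = 0.0719). Among the 18 tested regulators and scaffolds, the largest fall was that of Camk2a (-0.54, edgeR adjusted p = 0.186).

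Upstream of the cyclases, edgeR called 2 of 14 G protein genes lower and 0 higher; DESeq2 called 2 lower and 1 higher, and edgeR without library 6 called 9 lower and 1 higher. The shares of all tested genes beside these and the next counts are 5.83% lower and 4.71% higher with DESeq2, and 17.1% lower and 16.5% higher without library 6. Gnas, which encodes the stimulatory alpha subunit, stood at 26.2, 28.9 and 23.9 CPM under DMSO and at 8.47, 8.84 and 11.4 CPM under forskolin (edgeR log2 change -1.46 ± 0.17 (SE), adjusted p = 0.0276; without library 6 -1.62, adjusted p = 0.00286; GC trend removed -1.16, adjusted p = 0.199). Its value is uncertain, because its exons overlap those of the antisense gene Nespas and of Gm20721 and the counting's use of strand is not stated. Gnaz, an inhibitory alpha subunit, had means of 91.0 ± 6.48 CPM under DMSO and 56.9 ± 2.41 CPM under forskolin (SD, n = 3) and was called lower (edgeR log2 change -0.68, adjusted p = 0.0402; without library 6 -0.67, adjusted p = 0.00575; GC trend removed -0.58, adjusted p = 0.247; RLE factors -0.66, adjusted p = 0.0512), with all 3 forskolin libraries below the DMSO range. The largest rise was that of Gnai3, an inhibitory subunit, at 0.50 (edgeR adjusted p = 0.159).

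Of the receptors, edgeR called none on the 6 libraries. DESeq2 called 1 of those that couple to inhibitory subunits lower, and edgeR without library 6 called 7 of them lower; of those that couple to the stimulatory subunit it then called 4 lower and 1 higher. The 13 tested receptors that couple to the stimulatory subunit had a median of -0.33, from -1.09 for the serotonin receptor Htr6 to 1.60 for the prostaglandin receptor Ptger4 (edgeR adjusted p = 0.198 and 0.150). Ptger4, with 5, 7 and 6 counts under DMSO and 18, 32 and 13 under forskolin, passed the filter only through the group where it was higher, so its direction is no result. The 12 receptors that couple to inhibitory subunits were all below 0, with a median of -0.39. They ran from -0.84 ± 0.88 (SE) for the dopamine receptor Drd2 to -0.10 ± 0.71 for the opioid receptor Oprm1 (edgeR adjusted p = 0.588 and 0.942). Both had overlapping groups and a standard error above the size of the change, as had Cnr1, Grm3 and Htr1b. Nothing is read from the direction of these genes. Each of these lists held 4 genes with an unadjusted p-value under 0.05, Ptger4 among those of the first list, against 22.3% of all tested genes.

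Downstream, edgeR and DESeq2 each called 1 of 11 effectors of cAMP, lower, and edgeR without library 6 called 5 lower, where 5.83% of all tested genes were lower with DESeq2 and 17.1% without library 6. Hcn2, a channel gated by cAMP, stood at 61.5, 72.7 and 62.3 CPM under DMSO and at 31.3, 31.3 and 42.0 CPM under forskolin (edgeR log2 change -0.91 ± 0.15 (SE), adjusted p = 0.0458). Without library 6 the change was -1.08 ± 0.11 (edgeR adjusted p = 0.00309). Its GC content is 65.4%. With the GC trend removed and library 6 left out, chosen after the data were seen, the change was -0.46 ± 0.13 (edgeR adjusted p = 0.0319). In that setting 28.9% of all tested genes were called lower. With the GC trend removed on all 6 libraries the sign turned, to 0.11 ± 0.35 (edgeR adjusted p = 0.893). The call also ended with RLE factors (-0.89, edgeR adjusted p = 0.0617) and with mitochondrially encoded genes left out of the scaling (-0.92, edgeR adjusted p = 0.0544). The largest rise there was 0.11, for the protein kinase A subunit Prkar2b (edgeR adjusted p = 0.783). Of the 13 phosphodiesterases, which break cAMP down, edgeR called none on the 6 libraries, DESeq2 called 1 higher, and edgeR without library 6 called 1 higher and 4 lower, against 4.71% higher with DESeq2 and 16.5 and 17.1% without library 6 over all tested genes. In the full fit they had a median of -0.05 and 2 at an unadjusted p-value under 0.05. They ranged from -0.62 for Pde4a to 0.52 for Pde3b (edgeR adjusted p = 0.202 and 0.326). Of the 81 tested pathway genes, edgeR without library 6 called 4 higher and 31 lower, against 16.5 and 17.1% of all tested genes. DESeq2 on the 6 libraries called 3 higher and 5 lower, near its shares of 4.71 and 5.83%.

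**Figure D5:**
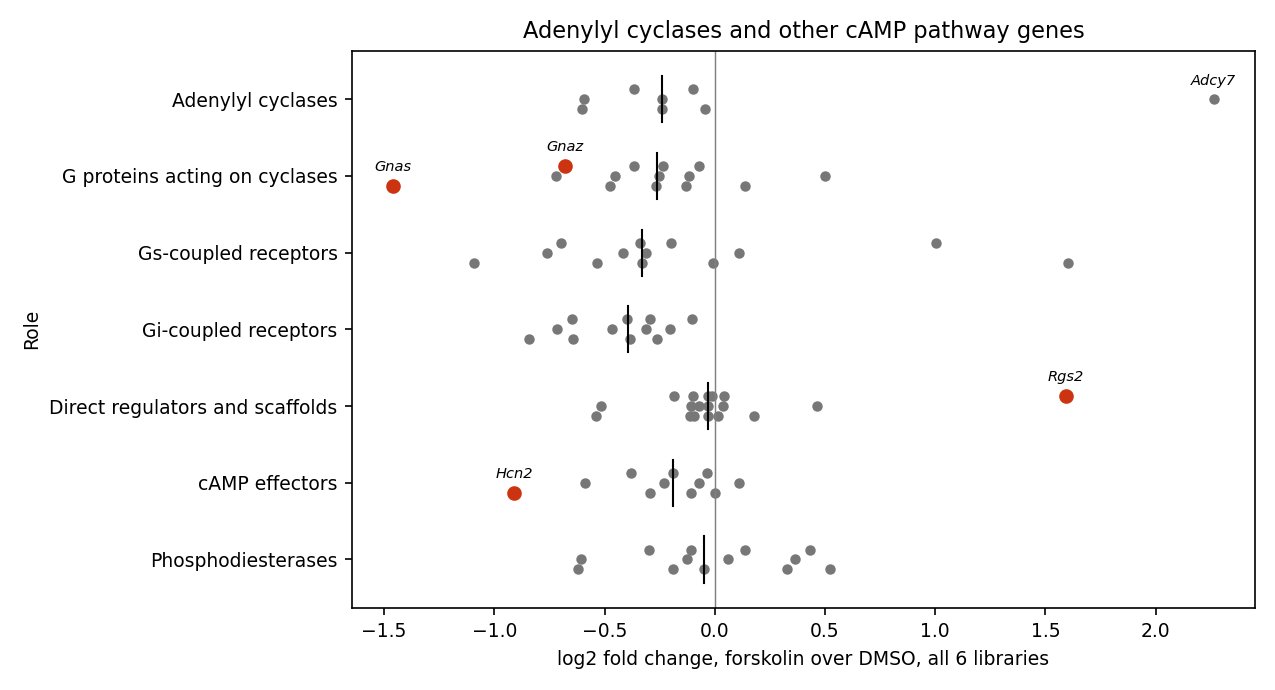
Each point is the log2 fold change, forskolin over DMSO, of 1 tested gene in the fit to all 6 libraries, in rows by role; red points passed the threshold and black bars are medians. The 8 cyclases have a median of -0.24, and the genes past the threshold are Rgs2 at 1.59, Hcn2 at -0.91, Gnaz at -0.68 and Gnas at -1.46.

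The genes most like each cyclase over the 6 libraries were found by the root mean square difference of log2 CPM, each gene centred on its own mean, among 13954 genes. Among the nearest to Adcy7 were Ms4a6b (0.213), a membrane protein gene of macrophages and other leukocytes, and the chemokine Cxcl5 (0.233). The median distance of all genes to Adcy7 was 1.34. Ms4a6b stood at 0.375, 0.623 and 0.870 CPM under DMSO and at 3.67, 6.05 and 0.687 CPM under forskolin. It was chosen for a profile like that of Adcy7, so its height in libraries 4 and 5 is no separate result. Nearest to Adcy1 were Chd3os (0.0359), Ssbp2 (0.0414) and Garnl3 (0.0431), and nearest to Adcy2 were Gabarapl1 (0.0178), Atp6v1e1 (0.0264) and Dnajc5 (0.0307). Adcy1 and Adcy2 were themselves 0.0778 apart.

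The neighbours of the remaining tested cyclases lay within the range of distances found for Adcy1 and Adcy2. Pcdh8 (0.0249), Slit3 (0.0330) and Adrbk1 (0.0339), a kinase of activated G protein-coupled receptors, were nearest to Adcy5. AI413582 (0.0278), Sept5 (0.0356) and Brsk2 (0.0385) were nearest to Adcy3, and Noc4l (0.0250), Dctn2 (0.0271) and Chmp7 (0.0285) to Adcy9. Wwc2 (0.0271), Txlna (0.0293) and Hadh (0.0338) were nearest to Adcy6, and Mknk1 (0.0244), Trap1 (0.0369) and Urm1 (0.0374) to Adcy8. These distances describe 6 libraries that share depth and composition effects.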

How the data were processed

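RNA was sequenced from 6 cultures, 3 per group by their labels. The deposited table gives whole-number counts per gene; the submitters' processing notes name Salmon, DESeq and GRCm38 without a role, so the counts may be rounded estimates, and strand use is not given in the sources used here. The members and all lists were chosen with earlier results of these data known. Counts were fitted with edgeR 4.0.16 in R 4.3.3 (TMM scaling, quasi-likelihood test, group as the only term), after a filter requiring about 10 counts in a group's libraries and 15 in all. The Benjamini-Hochberg adjustment covered the 16233 genes tested, and an adjusted p-value under 0.05 was a call. The standard error is the fold change divided by the root of F. DESeq2 1.42.0 (no independent filtering) and limma 3.58.1 (voom with quality weights) were alternatives, with other scalings, filters, a GC-trend correction and left-out libraries. Lengths, GC content and positions come from GENCODE M21 (GRCm38). With 3 against 3 libraries, the smallest exact permutation p-value is 0.1. The edgeR fit alone was also run on simulated counts with known changes, and the outcome is not given here. Named pathway genes are those past the threshold and the largest rise and fall in each role; the 3 nearest profiles were taken among tested genes with a mean of at least 1 CPM, using log2 CPM with a prior count of 2; 1 of them is not reported here. Intervals and floors cover counting error only.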

Additional observations from a re-analysis of the deposited data

How the results depend on the processing

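No paired analysis was possible because the libraries are numbered 1 to 6 across the groups and share no number. The cyclases called numbered 0 in the full edgeR fit, 2 with DESeq2, 6 with voom and quality weights, 6 with the GC trend removed and library 6 left out (added after seeing the data), and 0 to 6 when 1 library was left out, with 6 only without library 6. In the same order after a full-fit count of 245, all genes called numbered 1711, 6795, 7004 and 0 to 5698; they were 137 with RLE factors, 0 with the GC trend removed (smallest adjusted p 0.0719, 1815 genes at an unadjusted p under 0.05) and 94 with libraries 4 and 5 left out. Pathway genes called, 4 in the full fit, numbered 8, 41, 53 and 0 to 36, then 2, 0 and 1.

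Neuron markers called, 1 in the full fit, numbered 3 with DESeq2, 6 with voom, 7 with the GC trend and library 6 removed, 0 to 5 with 1 library left out, 2 with library size alone, and 0 with RLE factors, with the GC trend removed or without libraries 4 and 5. Of the lists with 0 in the full fit, astrocyte markers reached 2 with voom, 4 with the added setting and 0 to 2 with 1 library left out. Oligodendrocyte lineage markers reached 5 with DESeq2, 6 with voom, 6 with the added setting, 1 without libraries 4 and 5 and 0 to 6 with 1 library left out. Microglia markers reached 10, 10 and 11 with DESeq2, voom and the added setting and 0 to 11 with 1 library left out. Endothelial and mural markers reached 1, 1 and 1, and 0 to 1. All these marker counts join both directions. Of all tested genes 10.5% were called with DESeq2, 41.9% with voom, 41.3% with the added setting and 33.6% without library 6.

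Signs turned for Adcy1 (0.29), Adcy2 (0.23) and Adcy8 (0.0074) without libraries 4 and 5, which leaves 1 treated library assumed to vary like the others. Adcy6 turned to 0.069 with voom, 0.071 with the GC trend removed, 0.045 without DMSO library 1, 0.062 without library 6 (range with 1 library left out -0.16 to 0.062) and 0.068 with the added setting. Hcn2 turned to 0.11 with the GC trend removed. Adcy3, Adcy5 and Adcy9 stayed below 0 and Adcy7 above 0 in all 16 alternatives, though some changes were small. The values nearest to 0 were -0.21, -0.18, -0.081 and 0.15 in the same order. The causes were not tested.

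With coding length, 5 of 9 cyclases kept their place in the order of levels, and 5 with median transcript length. With coding length the shares in DMSO and forskolin were 61.8 and 61.8% for the calcium- and calmodulin-stimulated class, 12.1 and 13.7% for the beta-gamma-stimulated class and 6.88 and 6.58% for Adcy9, and 19.2% in DMSO for the calcium-inhibited class. With median length they were 14.9 and 16.7% for the beta-gamma-stimulated class, 30.3 and 28.6% for the calcium-inhibited class and 9.74 and 9.51% for Adcy9. The 3 genes nearest to each cyclase were the same with a prior count of 0.5. Depth limits Adcy4 and Adcy10, whose counts were too few for the full fit. Without library 6 the counts above take in Adcy10 and Itgam, which passed the filter there only through the group where they are high, so their calls are no result.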
